A study of Arabidopsis thaliana with 18 samples.

Results

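AT4G33420 and Prx37 (AT4G08770) are 2 genes of the class III peroxidase family of Arabidopsis thaliana, each read by 1 probe set of the ATH1 array. They were chosen from the measured responses: AT4G33420 because its difference between safener and mock was small in a mutant without TGA2, TGA3, TGA5 and TGA6, and Prx37 because it responded differently in the sid2-2 mutant. They are 2 of 13286 genes read by a probe set that names 1 gene, on an array of 22746 probe sets, and both had an intensity on all 18 arrays. The arrays were hybridized with RNA from rosette leaves of soil-grown plants at an age of 4 weeks. Plants were sprayed with the safeners mefenpyr (5 mM) and isoxadifen (7.2 mM), compounds that protect crops from herbicide injury, or with a mock spray that held DMSO in their place. The 6 groups of 3 biological samples were safener treated and mock treated wild type Col0, safener treated and mock treated tga2tga3tga5tga6, and safener treated and mock treated sid2-2. The first mutant lacks TGA2, TGA3, TGA5 and TGA6, and sid2-2 is a mutant of an isochorismate synthase needed for salicylic acid to build up under stress. The safener spray also held an emulsifier. It is not stated whether the mock spray held it too, how long after spraying leaves were taken, or in which ecotype the mutants were made. The disrupted genes were not analysed here.

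Class III peroxidases are secreted heme enzymes of plants that use hydrogen peroxide to oxidize phenolic compounds, among them the monolignols that form lignin, and that can stiffen the cell wall by cross-linking its polymers. In leaves many of them respond to wounding, pathogens and oxidative stress. TGA factors are bZIP proteins that switch on genes in response to salicylic acid, through the co-activator NPR1, and to reactive xenobiotics.

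Each array had an intensity for 14627 to 16408 probe sets, and r between replicate arrays was 0.977 to 0.994. Replicate 3 of mock sid2-2 and replicate 1 of safener wild type stood apart most, with 77 and 73 of 13433 probe sets at least 2-fold from the mean of the other arrays of their group, against 0 to 29 on the other arrays. The leaf genes RCA and LHCB4.2 were listed on all arrays, with group means of 4013 to 5154 for RCA and 2354 to 3990 for LHCB4.2. LHCB4.2 fell with safener in wild type (log2 -0.73, limma adjusted p = 0.000962). It was not called in tga2tga3tga5tga6 (log2 -0.21) or sid2-2 (log2 -0.39, limma adjusted p = 0.0503). Neither mutant's LHCB4.2 response was called different from that of wild type (limma adjusted p = 0.503 for tga2tga3tga5tga6 and 0.608 for sid2-2). The phloem marker SWEET11, 1 of 4 phloem markers with values, fell with safener in wild type (log2 -0.35, limma adjusted p = 0.0147), in tga2tga3tga5tga6 (log2 -0.62, adjusted p = 0.000389) and in sid2-2 (log2 -0.66, adjusted p = 0.000108). Their part in the results below was not tested. The root marker PYK10 had group means of 275 to 507. Of 7 xylem vessel markers 0 had a probe set that names 1 gene, so they could not be read. In whole leaves, fewer cells that express a gene and less RNA per cell cannot be told apart.

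AT4G33420 was several-fold higher with safener than with mock in wild type and in sid2-2, and was low in tga2tga3tga5tga6 with either spray. In wild type the intensity was 267, 207 and 309 on the safener arrays, against 26.3, 45.4 and 41.0 on the mock arrays. In tga2tga3tga5tga6 it was 32.4, 36.05 and 27.7 with safener, against 17.0, 16.5 and 19.75 with mock. In sid2-2 it was 206, 229 and 223 with safener, against 42.0, 41.7 and 76.1 with mock. Safener and mock arrays did not overlap in any of the 3 genotypes, but all 3 safener arrays of tga2tga3tga5tga6 lay within the range of mock wild type.

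The group means put numbers on that order. Mean intensity was 261 ± 51.5 in safener wild type and 37.6 ± 10.01 in mock wild type (SD, n = 3 each), a 7.04-fold change (log2 2.82, SE 0.21). In tga2tga3tga5tga6 the means were 32.05 ± 4.17 with safener and 17.7 ± 1.77 with mock, a 1.80-fold change (log2 0.85, SE 0.21). The difference of the 2 log2 responses, mutant minus wild type, was -1.97 (SE 0.30). These values chose the gene and are given as a description, without a test.

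Among safener treated plants the intensity of AT4G33420 was 8.08-fold lower in tga2tga3tga5tga6 than in wild type (log2 -3.01, SE 0.21). Among mock treated plants it was 2.07-fold lower (log2 -1.05, SE 0.21), and in both comparisons the arrays of the mutant all lay below those of wild type. The mock arrays of the mutant were close to the lower end of what was listed: only 1.24% to 2.01% of the values on each of them were lower. In safener wild type 51.0% to 64.2% of each array's values were lower.

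In sid2-2 AT4G33420 averaged 219 ± 11.98 with safener and 53.25 ± 19.75 with mock (SD, n = 3 each). It was 4.28-fold higher with safener (log2 2.10, SE 0.22, 95% interval 1.65 to 2.55), and all 3 safener arrays lay above all 3 mock arrays. This response was also known when the gene was chosen, so it too is given without a test. The mock group was uneven, since replicate 3 (76.1) was 1.82-fold above the mean of the other pair. Without it the log2 change was 2.39. The response was smaller than in wild type by 0.72 on the log2 scale (SE 0.30), and by 0.43 without that array. With safener, sid2-2 and wild type arrays overlapped (log2 -0.23, SE 0.21, 95% interval -0.69 to 0.22).

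Ordered from low to high, the group levels of AT4G33420 were mock tga2tga3tga5tga6, safener tga2tga3tga5tga6, mock wild type, mock sid2-2, safener sid2-2 and safener wild type. Neighbours whose arrays overlapped were safener tga2tga3tga5tga6 with mock wild type, mock wild type with mock sid2-2, and safener sid2-2 with safener wild type. The levels thus fell into 3 steps: mock tga2tga3tga5tga6 at the bottom, a middle step of 3 groups between 26.3 and 76.1, and safener treated wild type and sid2-2 between 206 and 309.

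**Figure D1:**
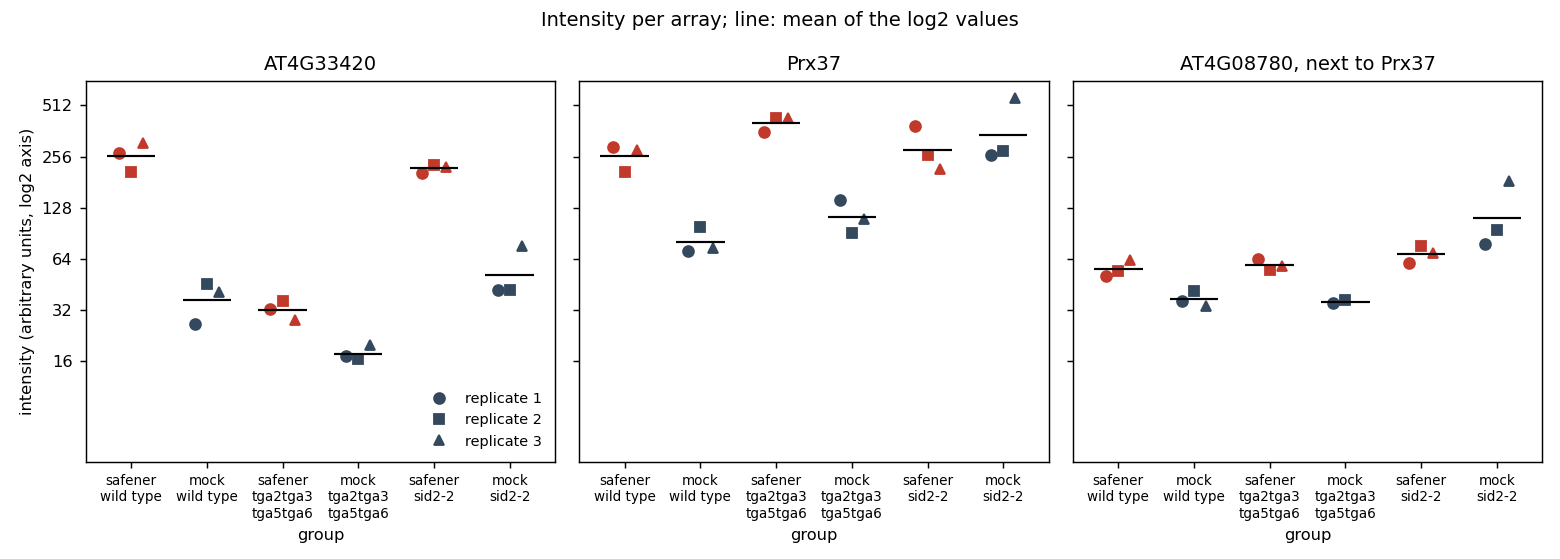
Intensity (log2 axis) of AT4G33420, Prx37 and the neighbouring gene AT4G08780 on each array, by group; symbols mark the replicate, red is safener, dark blue is mock, and the line is the mean of the log2 values. AT4G33420 is low on all 6 tga2tga3tga5tga6 arrays (16.5 to 36.05), and Prx37 is high on the mock sid2-2 arrays (261 to 564); AT4G08780 has no value on 1 mock tga2tga3tga5tga6 array.

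Prx37 gave another pattern. In Arabidopsis this peroxidase has been linked to cross-linking of phenolics in the cell wall. It was higher with safener than with mock in wild type and in tga2tga3tga5tga6, and in sid2-2 it was high with either spray. Wild type arrays had intensities of 292, 208 and 278 with safener, against 71.4, 98.6 and 74.3 with mock. In tga2tga3tga5tga6 they were 359, 433 and 429 with safener, against 141, 91.3 and 109 with mock. The sid2-2 arrays had 386.5, 261 and 216 with safener, against 261, 276 and 564 with mock. Safener and mock arrays were fully apart in the first 2 genotypes and overlapped in sid2-2.

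In wild type the mean intensity of Prx37 was 259.5 ± 45.0 with safener and 81.45 ± 14.96 with mock (SD, n = 3 each), a 3.19-fold change (log2 1.67, SE 0.25). In sid2-2 the means were 288 ± 88.5 with safener and 367 ± 171 with mock (log2 -0.30, SE 0.26). The difference of the log2 responses, sid2-2 minus wild type, was -1.97 (SE 0.36). As these values chose the gene, they carry no test.

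The safener treated groups of sid2-2 and wild type overlapped (log2 0.12, SE 0.25, 95% interval -0.41 to 0.65), whereas in mock treated plants Prx37 was 4.26-fold higher in sid2-2 (log2 2.09, SE 0.25), with all sid2-2 arrays above all wild type arrays. The difference between the genotypes thus lay in the mock treated plants. Replicate 3 of mock sid2-2 (564) was 2.10-fold above the mean of the other pair, and the same array was high for AT4G33420 and for the neighbouring gene. Without that array the log2 change with safener in sid2-2 was 0.06, so its sign rests on that array. The mock difference from wild type was then 1.74, and the difference of the responses -1.61. The root marker PYK10, the 1 of 4 root markers with values, was lower with safener in sid2-2: it averaged 275 ± 46.9 with safener and 507 ± 107 with mock (log2 -0.88, limma adjusted p = 0.000688). Its mock level was 344 ± 26.3 in wild type (log2 0.54 for sid2-2 minus wild type, limma adjusted p = 0.0255). PYK10 was not called with safener in wild type (log2 -0.29) or tga2tga3tga5tga6 (log2 -0.04), where Prx37 changed by log2 1.67 and 1.86. The difference of the PYK10 responses, sid2-2 minus wild type, was not called either (log2 -0.59, limma adjusted p = 0.45). The part of PYK10 in the result was not tested.

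In tga2tga3tga5tga6 Prx37 averaged 407 ± 41.7 with safener and 114 ± 25.2 with mock (SD, n = 3 each). It was 3.62-fold higher with safener (log2 1.86, SE 0.25, 95% interval 1.33 to 2.39). This response was known when the gene was chosen and is likewise a description. The response differed from that of wild type by 0.19 on the log2 scale (SE 0.36, 95% interval -0.56 to 0.93). Safener arrays of the mutant all lay above those of wild type (1.58-fold, log2 0.66, SE 0.25), while mock arrays of the 2 genotypes overlapped (log2 0.47, SE 0.25).

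From low to high, Prx37 ran from mock wild type through mock tga2tga3tga5tga6, safener wild type, safener sid2-2 and mock sid2-2 to safener tga2tga3tga5tga6. Only the step from mock tga2tga3tga5tga6 to safener wild type separated neighbours without overlap. Below it lay the mock plants with an intact isochorismate synthase, and above it the safener treated plants and both sid2-2 groups.

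**Figure D2:**
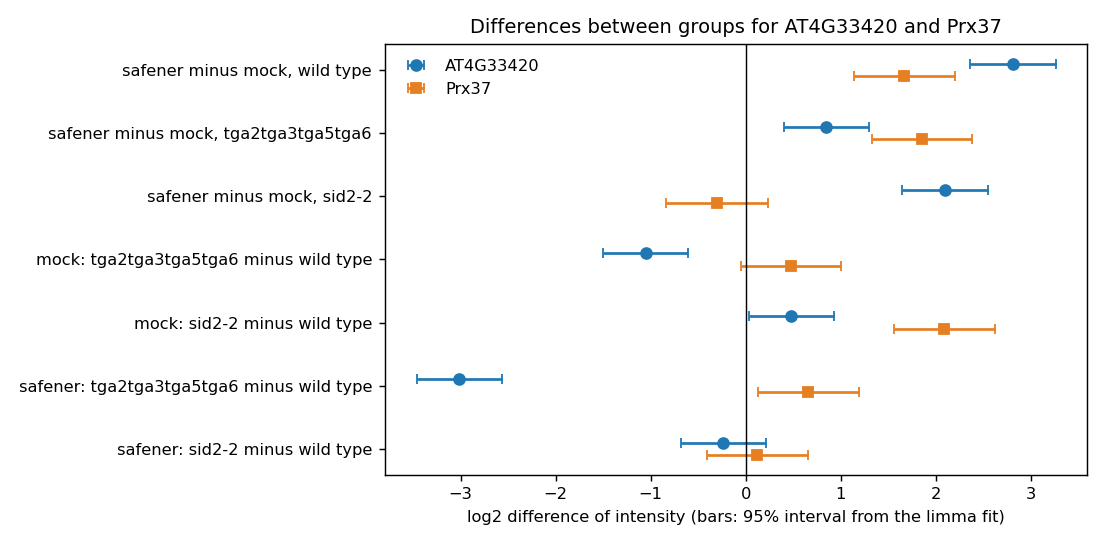
Differences between groups on the log2 scale for AT4G33420 (circles) and Prx37 (squares), with 95% intervals from the limma fit. The intervals take no account of how the genes were chosen and are not tests. The safener response of AT4G33420 is 2.82 in wild type and 0.85 in tga2tga3tga5tga6, and that of Prx37 is 1.67 in wild type and -0.30 in sid2-2.

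Side by side, the 2 peroxidases differed in which mutant changed their safener response most, a contrast set by how they were chosen. The response of AT4G33420 was also smaller in sid2-2 than in wild type (log2 -0.72, SE 0.30). Over the 18 arrays the log2 values of the 2 genes correlated at r = 0.40, and Prx37 ranked 1469 in likeness to AT4G33420 among 7141 other genes. The choice of the genes bears on this correlation too. The comparisons share arrays: the wild type arrays enter every difference from wild type, for both genes.

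Next to Prx37 on chromosome 4, in the RefSeq annotation of TAIR10.1, lies AT4G08780, a peroxidase gene of the same family and a tandem relative. Its highest intensity was on replicate 3 of mock sid2-2, and 1 array had none. It had 50.6, 53.8 and 62.9 in safener wild type, against 36.3, 41.5 and 33.7 in mock wild type. In sid2-2 it had 60.1, 75.7 and 69.0 with safener, against 78.5, 94.2 and 184 with mock. Mock sid2-2 was its highest group and did not overlap mock wild type (2.99-fold, log2 1.58, SE 0.21, limma adjusted p = 3.77e-05, at most 0.0356 in any alternative). It rose in wild type (log2 0.59, SE 0.21, limma adjusted p = 0.0395) and in tga2tga3tga5tga6 (log2 0.71, SE 0.23, adjusted p = 0.0419), and fell in sid2-2 (log2 -0.70, SE 0.21, adjusted p = 0.017). The fall was not called without replicate 3 of mock sid2-2 (log2 -0.34, adjusted p = 0.0581), without replicate 1 of safener sid2-2, with only the arrays compared in the fit or with blanks set to the lowest listed value (adjusted p of up to 0.302). The log2 values of AT4G08780 and Prx37 correlated at r = 0.75 over the 17 arrays that list both. Probes of close relatives can bind each other's transcript, so the 2 probe sets may not be separate measurements, and how much they share was not tested.

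The rest of the family was looked at to place the pair. Of the 71 other class III peroxidase genes, 7 were read only by probe sets that name several genes, which were not used. Another 53 had a probe set that names 1 gene, and 33 of these had a value on any array and 10 on all arrays. Only 13 to 18 of them could be tested in a comparison, since a gene needed at least 2 listed values in each group. The counts below are for those genes alone.

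With safener, 5 of 15 other peroxidases rose and 3 fell in wild type (median log2 0.20, against -0.06 over all 14704 probe sets), where 14.9% of all probe sets tested were called higher and 17.3% lower. AT5G19880 had 233, 180 and 173 with safener, against 59.1, 71.6 and 70.8 with mock (2.90-fold, log2 1.53, SE 0.19, limma adjusted p = 8.92e-06). AT5G64120 averaged 995 ± 108 with safener and 577 ± 127 with mock (log2 0.80, SE 0.15). AT2G37130 fell (297 ± 21.98 with safener and 527 ± 61.5 with mock, log2 -0.82, SE 0.13), and so did AT5G40150 (37.9 ± 5.75 with safener and 67.5 ± 11.6 with mock, log2 -0.83, SE 0.18). The number called was 4 without replicate 1 of mock wild type or without replicate 2 or 3 of safener wild type.

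In tga2tga3tga5tga6 4 of 18 rose and 4 fell with safener (median log2 0.02, against -0.07 over all probe sets), where 8.81% of all probe sets tested were higher and 10.3% lower. AT5G19880 rose 1.99-fold (229 ± 33.0 with safener and 115 ± 12.7 with mock, limma adjusted p = 0.00144), and AT5G64120 rose 1.66-fold (1039 ± 95.4 with safener and 631 ± 101 with mock). With blanks set to the lowest listed value AT5G19880 was not called in either genotype (adjusted p of 0.297 in the mutant and 0.072 in wild type). AT5G40150 (log2 -0.61, SE 0.18) and AT2G37130 (log2 -0.45, SE 0.13) fell, but each lost its call without 1 of 3 or 4 arrays (adjusted p of up to 0.0987 and 0.131). The number called was 3 without mock replicate 2 or safener replicate 1 and 2 without mock replicate 3 or safener replicate 3.

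The sid2-2 response held 0 raised and 4 lowered of 14 other peroxidases (median log2 -0.10, against -0.09 over all probe sets), while 13.0% of all probe sets tested were higher and 19.6% lower. No other peroxidase was higher at an unadjusted p under 0.05 either, although array weights called 3 higher, and 1 was called higher without replicate 3 of mock sid2-2 and with blanks set to the lowest listed value. AT2G37130 fell 2.19-fold (291 ± 21.75 with safener and 638 ± 32.5 with mock, log2 -1.13, SE 0.13, limma adjusted p = 4.53e-06). AT3G21770 fell as well (103.5 ± 4.28 with safener and 160 ± 40.8 with mock, log2 -0.60, SE 0.15). AT5G40150 fell (log2 -0.56, SE 0.18), a call that was lost without mock replicate 1 or 2, without safener replicate 3 and with only these arrays in the fit (adjusted p of up to 0.14). The remaining lowered gene was AT4G08780.

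**Figure D3:**
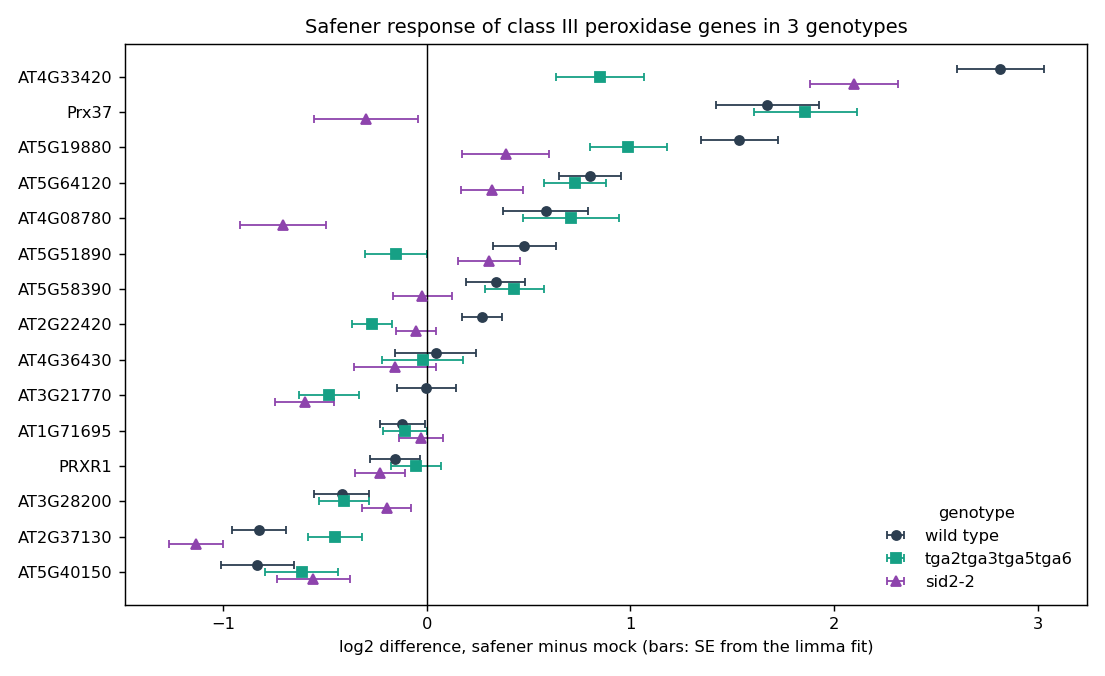
Safener response (log2, safener minus mock, bars are SE) of the 15 class III peroxidase genes that could be fitted in all 3 genotypes, ordered by the wild type response. AT4G33420 and Prx37 have the top 2 wild type responses (2.82 and 1.67), a contrast that took part in choosing them, and AT5G19880 follows at 1.53.

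When the responses themselves were compared, 0 of 15 other peroxidases differed between tga2tga3tga5tga6 and wild type and 0 of 13 between sid2-2 and wild type by limma. The shares of all probe sets called were 0.467% and 0.103%, of which 0.0412% and 0.0207% were higher in the mutant and 0.426% and 0.0826% lower. At an unadjusted p under 0.05 there were 3 and 5, all smaller in the mutant, and array weights called 2 and 1. The count for sid2-2 was 1 without replicate 1 of mock sid2-2. The median difference was -0.06 for tga2tga3tga5tga6, against -0.02 over all probe sets, and -0.31 for sid2-2, against -0.04.

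Among mock treated plants, 4 of 16 other peroxidases were higher and 2 lower in tga2tga3tga5tga6 than in wild type, where 6.04% of all probe sets tested were higher and 1.77% lower (median log2 0.07 for the family and 0.07 over all probe sets). PRX52 (AT5G05340) had 102, 85.7 and 84.05 in mock tga2tga3tga5tga6, against 33.2, 36.1 and 38.6 in mock wild type (2.51-fold, log2 1.33, SE 0.17, limma adjusted p = 7.32e-05). It was about as high in the mutant with safener (106 ± 27.3, against 44.1 ± 8.20 in safener wild type). AT5G51890 was 2.03-fold higher (321 ± 16.4 in the mutant and 160 ± 28.2 in wild type), and AT2G22420 1.38-fold. The 2 lower genes were AT2G37130 (346 ± 72.4 in the mutant and 527 ± 61.5 in wild type, log2 -0.62, SE 0.13, limma adjusted p = 0.00527) and AT4G11290 (44.2 ± 3.34 in the mutant and 70.1 ± 13.4 in wild type, log2 -0.65, SE 0.16, adjusted p = 0.0213). They were named after their values were seen.

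In mock sid2-2, 4 of 15 were higher and 0 lower than in mock wild type (median log2 0.15, against 0.11 over all probe sets), where 17.3% of all probe sets tested were higher and 5.37% lower. No peroxidase was lower at an unadjusted p under 0.05 either, and array weights called 7 higher and 1 lower. After AT4G08780, the smallest adjusted p was that of AT4G11290, with 141, 129 and 195 in mock sid2-2 against 55.3, 73.5 and 81.6 in mock wild type (2.20-fold, log2 1.14, SE 0.16, limma adjusted p = 0.000174, and 0.202 with blanks set to the lowest listed value). AT2G22420 was 1.40-fold higher (49.9 ± 2.04 in mock sid2-2 and 35.7 ± 3.99 in mock wild type). AT4G11290 was listed on 0 safener arrays of wild type and on all 3 mock arrays, so its response there has no log2 value.

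Genes around the peroxidases in the pathway could be read only in part. Of 19 monolignol synthesis genes 2 could be tested at most. CCR2, a cinnamoyl-CoA reductase, rose in tga2tga3tga5tga6 (106 ± 8.86 with safener and 48.4 ± 8.27 with mock, log2 1.14, limma adjusted p = 3.99e-05) and in sid2-2 (51.3 ± 5.31 with safener and 26.2 ± 4.66 with mock, log2 0.97, adjusted p = 0.000246). It was not tested in wild type. HCT, a hydroxycinnamoyltransferase, gave log2 0.10 to 0.12 in the 3 genotypes and was not called. Of the ascorbate peroxidases and catalases, which remove hydrogen peroxide inside the cell, 2 of 11 were measured. The thylakoid enzyme tAPX fell in all 3 genotypes (log2 -0.35 in wild type, -0.41 in tga2tga3tga5tga6 and -0.28 in sid2-2, limma adjusted p = 0.0111, 0.00751 and 0.0375), and the stromal sAPX was not called (log2 -0.20, -0.19 and -0.18). Laccases and NADPH oxidases had 0 testable genes. Only 1 of 17 laccase genes and 3 of 10 NADPH oxidase genes had a probe set that names 1 gene, so this count says little about their expression.

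The genes whose log2 values followed each peroxidase most closely were found among 7141 other genes with values on all 18 arrays. For AT4G33420 they were AT4G02940 (r = 0.967), IAGLU (AT4G15550, r = 0.966), AT4G30490 (r = 0.963), AT4G24160 (r = 0.961) and bHLH115 (AT1G51070, r = 0.958). IAGLU, a glucosyltransferase of the auxin indole-3-acetic acid, averaged 535 in safener wild type and 94.7 in mock wild type, 82.9 and 41.8 in tga2tga3tga5tga6, and 646 and 159 in sid2-2. Its log2 responses were 2.46, 0.97 and 2.02 in wild type, tga2tga3tga5tga6 and sid2-2, and those of AT4G33420 were 2.82, 0.85 and 2.10. The other genes changed less: AT4G24160 had responses of 1.62, 0.77 and 1.54, and bHLH115, a transcription factor of the iron response, had 0.71, 0.21 and 0.60.

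For Prx37 the closest were AT5G58375 (r = 0.926), AT1G33030 (r = 0.895), AT1G33590 (r = 0.895), AT1G35190 (r = 0.892) and AT3G16530 (r = 0.891). All 5 had smaller responses than Prx37 in wild type (log2 0.50 to 1.04) and in tga2tga3tga5tga6 (log2 0.32 to 1.06). In sid2-2 their responses ran from log2 -0.03 (AT3G16530) to 0.60 (AT1G33030), against -0.30 for Prx37. AT3G16530, a legume lectin family gene, averaged 2715 in safener wild type and 1579 in mock wild type, 3502 and 2334 in tga2tga3tga5tga6, and 3776 and 3849 in sid2-2. The correlations describe these 18 arrays. Their points share the 6 groups and the arrays.

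**Figure D4:**
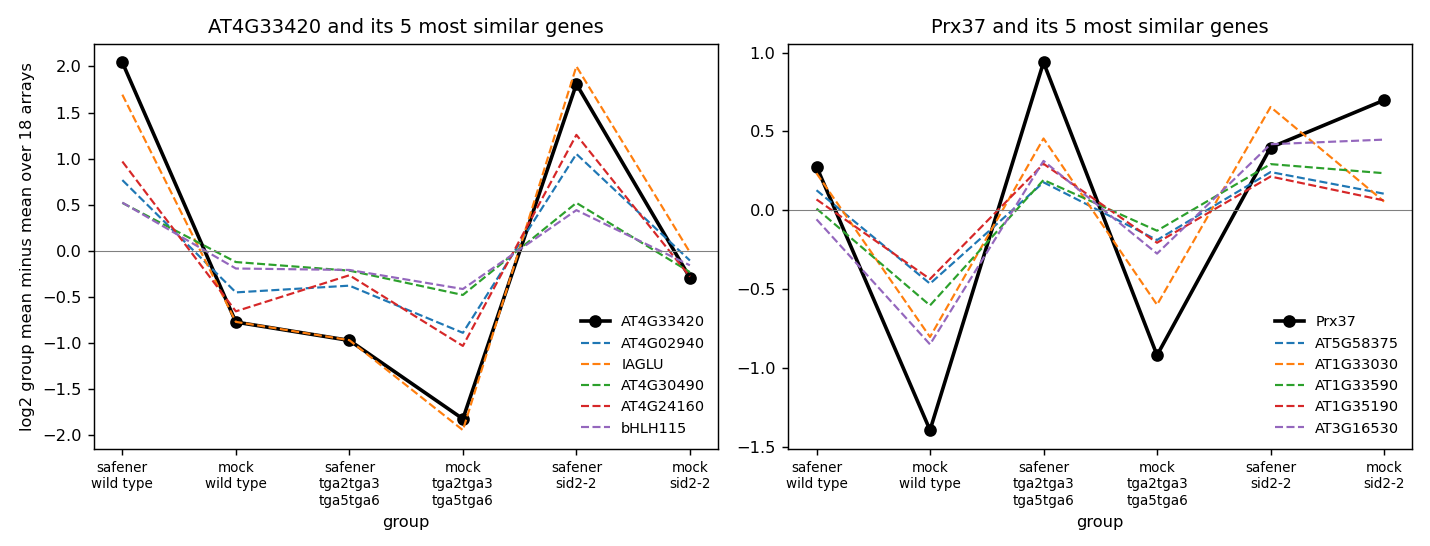
Group means of log2 intensity minus each gene's mean over the 18 arrays, for AT4G33420 (left) and Prx37 (right) in black and the 5 genes most correlated with each as dashed lines. The profile of IAGLU lies close to that of AT4G33420, and the genes closest to Prx37 share its low mock wild type level with smaller differences.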

How the data were processed

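The authors deposited linear intensities, 1 for each probe set on each array. RMA, with no version, made them per the submitters' processing notes. Each array's listed values had a median of 200, and 31.5% of the values were blank; the reason is not stated. Listed intensities were converted to log2 and blanks left missing. Of 22810 probe sets 64 array controls were left out. The annotation named 1 gene for 13513 probe sets, several for 503 and none for 8730, and 13436 of the first matched a RefSeq locus. All columns were used.

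A limma (3.58.1) model of 6 group means was fitted to all 18 arrays (lmFit, eBayes), and Benjamini-Hochberg adjusted p values over all probe sets tested in a comparison were called under 0.05. A probe set needed at least 2 listed values in each group compared. The fit was tested on simulated data. The number of arrays limits the precision. The p values rest on the spread between biological samples within groups, pooled over the 6 groups and moderated across probe sets by eBayes.

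The members and lists were chosen with earlier results of these data known, the responses of AT4G33420 and Prx37 in every genotype among them, so no p value is given for either gene. Other peroxidases were named by smallest adjusted p (up to 4 per safener response, 3 per other comparison), other lists likewise (up to 2), and similar genes by the 5 highest Pearson correlations. The family list came from general knowledge. AT4G08780 was named as the neighbour of Prx37. Of a gene's probe sets the brightest was used. Same-numbered replicates were checked for pairing and not paired. Alternatives were 2 other scalings, blanks at the lowest value, filters on low and blank values, only the arrays compared, array weights, another variance prior, a replicate block and leaving out each array.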

Additional observations from a re-analysis of the deposited data

Results flagged for a closer look

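AT4G08780, the neighbour of Prx37, had every safener array above every mock array in wild type and every safener array below every mock array in sid2-2. The difference of the log2 responses, sid2-2 minus wild type, was -1.29 (SE 0.30) and was not called (limma adjusted p = 0.121). For AT2G22420 all 3 safener arrays lay below all 3 mock arrays in tga2tga3tga5tga6, a change that was not called (log2 -0.27, limma adjusted p = 0.0609), and above them in wild type (log2 0.27). The difference, tga2tga3tga5tga6 minus wild type, was -0.54 (SE 0.14) and was not called either (limma adjusted p = 0.112).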

How the results depend on the processing

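For AT4G33420 and Prx37, 257 of 258 values under an alternative stayed within the residual SD of the gene (0.309 and 0.371 on the log2 scale) of the main value, or in the 2 responses below kept their direction. The exception was the mock difference of AT4G33420, sid2-2 minus wild type, at 0.0796 with array weights against 0.48. Part of the 257 was fixed in advance, because both genes had a value on every array and the groups were of equal size. Their log2 values could not change with blanks at the lowest value, only the arrays compared, another variance prior or the replicate block. The stability of the log2 values thus rests on the other alternatives, which were the scalings, array weights and leaving out each array. The response of AT4G33420 in sid2-2 ranged from log2 1.95 to 2.39 and that of Prx37 in tga2tga3tga5tga6 from 1.71 to 2.02 over the alternatives run. Same-numbered replicates did not deviate together in every pair (r = -0.374 to 0.262), so the samples were not paired by number. The labels do not say whether same-numbered samples were handled together. With the replicate block these responses were log2 2.10 and 1.86, which the balanced design fixes in advance. The family counts were then 8, 7, 4, 0, 0, 6 and 4, with 7 in tga2tga3tga5tga6 against 8 in the main fit. The number of other peroxidases called was less stable. In wild type it was 5 with a mean log2 of at least 6 and 5 with only probe sets listed on all arrays, against 8, and 4 to 7 without 1 array. In tga2tga3tga5tga6 it was 4 with blanks at the lowest listed value and 5 with only probe sets listed on all arrays, against 8, and 2 to 6 without 1 array. In sid2-2 it was 2 with a mean log2 of at least 6, 2 with only the arrays compared and 9 with array weights, against 4, and 3 to 5 without 1 array. For the differences of responses it was 2 for tga2tga3tga5tga6 and 1 for sid2-2 with array weights, 1 for sid2-2 with blanks at the lowest listed value, against 0, and 0 to 1 for sid2-2 without 1 array. In mock tga2tga3tga5tga6 it was 3 with only probe sets listed on all arrays, against 6. In mock sid2-2 it was 2 with a mean log2 of at least 6, 2 with only probe sets listed on all arrays and 8 with array weights, against 4. The 2 filters test fewer genes; for the other settings the cause was not tested. Of the 256 alternatives of the other named peroxidases 238 kept the call and the rest lost it with the same direction. Median centring moved the median of an array by up to 0.119 (safener wild type replicate 1) and -0.112 (mock sid2-2 replicate 3) on the log2 scale. Low signal limits AT4G33420 in tga2tga3tga5tga6 and mock wild type, where at most 10.5% of an array's listed values were lower.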

Other observations

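AT5G06730, another class III peroxidase, was singled out after its values were seen. It had a value on all 12 arrays of the mutants and on 1 safener and 1 mock array of wild type. Its intensity was 67.2, 51.3 and 57.2 in safener tga2tga3tga5tga6 and 62.0, 26.9 and 35.6 in mock tga2tga3tga5tga6. In sid2-2 it was 45.75, 39.5 and 26.2 with safener and 38.4, 32.6 and 35.1 with mock. The values on the wild type arrays were 19.1 with safener and 21.85 with mock. PRX52 had values on all 3 mock arrays of sid2-2 (38.9, 30.4 and 40.0) and on 0 of its safener arrays. AT5G39580 had values on all 3 safener arrays of wild type (15.2, 13.9 and 16.6) and on 0 mock arrays. In sid2-2 AT5G39580 had values on all 3 safener arrays (26.9, 15.7 and 16.5) and on 1 mock array (12.85). In tga2tga3tga5tga6 it had 1 safener value (10.9) and 1 mock value (9.925). AT5G06730 was not called for safener against mock in tga2tga3tga5tga6 (log2 0.58, limma adjusted p = 0.116) or in sid2-2 (log2 0.04, adjusted p = 0.925). The comparisons with a group of 0 or 1 values were not tested.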
